A study of Rattus norvegicus with 6 samples.

Results

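Fibrinogen is the soluble plasma protein that thrombin turns into the fibrin mesh of a clot. Each molecule is built from pairs of the 3 chains described here: the Aα chain encoded by Fga, the Bβ chain encoded by Fgb and the γ chain encoded by Fgg. The members were every non-control probe of the array whose accession belongs to one of these genes, which gave 5 probes (1 for Fga, 2 for Fgb and 2 for Fgg) among 61657 probes for 45877 genes or array identifiers. The animals were male rats of the Sprague-Dawley stock, 5 weeks old when bought, and RNA was taken from renal cortex. The o-anisidine group was given 700 mg/kg of o-anisidine hydrochloride each day over 4 weeks (3 rats), and the VC group was given water over the same time (3 rats). o-Anisidine is an aromatic amine. Each animal had its own single-colour Agilent array, and the series calls the animals biological replicates.

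Plasma fibrinogen comes from hepatocytes, where the chains are made together and only the assembled molecule is secreted efficiently. In the acute phase response interleukin 6 acts through STAT3 to raise transcription of all 3 genes, and factors of the C/EBP family act at their promoters. Tubular epithelial cells of injured rodent kidneys are also known to carry RNA of the chains. In bulk tissue of this kind, a change in the number of cells that make an RNA and a change in RNA per cell cannot be told apart.

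Values are log2 of the processed spot signal divided by the array's 75th percentile, so that 0 is a signal at that percentile. A spot is called well above background by the flag of the scanner software. Between 41670 and 43630 probes had this flag on an array, no spot was saturated, and the unscaled 75th percentile lay between 923 and 1031. All 15 proximal tubule markers and all 8 podocyte markers listed for the tissue check were measured well enough to be tested. The arrays sat on 2 slides: o-anisidine 1 and o-anisidine 2 on one, o-anisidine 3 with all of VC on the other. The number of arrays, 3 in either group, is a limit on precision.

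All 3 chains shared 1 pattern over the arrays: o-anisidine 1 was far above the rest, o-anisidine 3 was second and above every VC array, and o-anisidine 2 was at the level of VC. All 5 probes had this order, which 1.94% of the 31087 genes tested also had, a comparison chosen after the values were seen. On o-anisidine 1 the signal over the VC mean was 4.15-fold for Fga, 14.5-fold for Fgb and 20.9-fold for Fgg. The VC mean of Fgg lay near the detection limit, so the size of its fold, and its place above Fgb, are uncertain. Neither chain that could be tested, Fga or Fgb, passed the test between the groups, and for each of the 3 chains the SD among the o-anisidine animals was larger than the difference of the means.

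The promoters are shown because the 3 genes kept the same order of arrays. The table of RefSeq promoters for the GRCr8 assembly held all 3 genes, which lie on chromosome 2, and each sequence runs from 250 bases before the annotated start to 50 bases after it. For Fga the table holds 2 starts, and the first is printed. Capitals mark CTGGGA, the core letters of interleukin 6 response elements in acute phase genes, and TATAAA or TATATA, each read on both strands.
Fga (chr2:170671919-170672218, plus strand): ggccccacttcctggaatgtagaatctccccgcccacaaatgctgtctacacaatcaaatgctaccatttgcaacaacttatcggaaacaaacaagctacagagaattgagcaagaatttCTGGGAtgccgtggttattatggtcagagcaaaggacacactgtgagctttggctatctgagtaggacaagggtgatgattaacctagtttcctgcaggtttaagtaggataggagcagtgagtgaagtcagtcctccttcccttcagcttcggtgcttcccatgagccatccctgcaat
Fgb (chr2:170700826-170701125, minus strand): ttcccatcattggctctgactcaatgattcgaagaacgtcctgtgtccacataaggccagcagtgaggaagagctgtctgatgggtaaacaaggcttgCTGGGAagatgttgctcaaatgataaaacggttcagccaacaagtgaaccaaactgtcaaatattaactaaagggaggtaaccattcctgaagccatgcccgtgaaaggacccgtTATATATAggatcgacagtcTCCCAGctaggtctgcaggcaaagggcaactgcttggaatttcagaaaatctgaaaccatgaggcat
Fgg (chr2:170652833-170653132, plus strand): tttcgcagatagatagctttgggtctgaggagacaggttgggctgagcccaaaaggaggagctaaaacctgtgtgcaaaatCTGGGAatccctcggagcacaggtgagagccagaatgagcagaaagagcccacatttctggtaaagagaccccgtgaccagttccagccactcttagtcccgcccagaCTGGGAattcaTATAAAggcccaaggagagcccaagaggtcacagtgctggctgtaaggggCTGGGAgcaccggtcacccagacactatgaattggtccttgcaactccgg

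CTGGGA occurred 1 time in the Fga window, 2 times in that of Fgb and 3 times in that of Fgg, and 30.3% of 33469 promoters in the table hold it. Its first match began 130 bases before the start in Fga, 152 in Fgb and 169 in Fgg. With 1 more letter, CTGGGAA, which contains CTGGGA, matched 1 time in Fgb and 2 times in Fgg but not in Fga, set beside 11.3% of all promoters. TATAAA lay 50 bases before the start of Fgg (14.2% of promoters) and overlapping copies of TATATA lay 37 and 35 bases before that of Fgb (6.15% of promoters). The C/EBP letters TTNNGNAA, which 41.3% of promoters hold, matched 1 time in Fga and 4 times in Fgb, where 2 of the 4 overlap each other after the start. TTNNGNAA did not match in the Fgg window. These matches are letters in a window and not measured binding, and their part in the values of the chains was not tested.

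Fga encodes the chain from which thrombin cuts fibrinopeptide A, and its probe A_44_P332328 was well above background on all 6 arrays. It read 2.57, 0.67 and 0.95 across o-anisidine 1 to 3, against 0.17, 0.74 and 0.64 across VC 1 to 3. o-Anisidine 1 and 3 were above every VC array, o-anisidine 2 was inside the range of VC, and so the groups overlapped. The group means were 1.39 ± 1.02 for o-anisidine and 0.51 ± 0.31 for VC (SD, n = 3 each), a log2 difference of 0.88 (SE 0.50, limma with Benjamini-Hochberg adjustment over 31087 genes, adjusted p = 0.553).

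Fgb, the chain that carries fibrinopeptide B, had a larger spread. Its brighter probe A_43_P10037 read 2.76, -0.92 and 0.19 across o-anisidine 1 to 3, against -1.31, -0.60 and -1.39 across VC 1 to 3. Again o-anisidine 1 and 3 exceeded all of VC while o-anisidine 2 lay between VC 1 and VC 2, so the groups overlapped. The means were 0.67 ± 1.89 for o-anisidine and -1.10 ± 0.44 for VC (SD, n = 3 each), a log2 difference of 1.77 (SE 0.91, limma with Benjamini-Hochberg adjustment, adjusted p = 0.513). The other Fgb probe, A_44_P1044835, targets the same gene, so it is no further replicate, and read 1.90, -1.75 and -0.79 across o-anisidine 1 to 3, against -2.10, -1.60 and -2.23 across VC 1 to 3. Both probes gave nearly the same shift from the VC mean: 3.86 and 3.88 on o-anisidine 1, 0.17 and 0.23 on o-anisidine 2, and 1.29 and 1.18 on o-anisidine 3.

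Fgg, the chain with the site that binds platelet integrin in its tail, was near the detection limit outside o-anisidine 1 and 3. Its brighter probe A_43_P11464 read -1.44, -6.14 and -4.31 across o-anisidine 1 to 3, against -6.08, -5.76 and -5.64 across VC 1 to 3. It was well above background on 2 of 3 arrays in each group, failing on o-anisidine 2 and VC 1, and therefore did not enter the test. The means were -3.96 ± 2.37 for o-anisidine and -5.82 ± 0.23 for VC (SD, n = 3 each), a log2 difference of 1.86. With no filter on dim probes, where 45869 genes were tested, this difference had an SE of 1.17 and an adjusted p = 0.482 (limma, Benjamini-Hochberg).

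The dimmer Fgg probe A_44_P558641 read -2.49, -6.90 and -5.19 across o-anisidine 1 to 3, against -8.19, -6.44 and -7.65 across VC 1 to 3. It was well above background on o-anisidine 1 and 3 and on no VC array. With each VC array set to the higher of its own signal and the lowest signal well above background there, this probe was at least 12.7-fold higher on o-anisidine 1 and at least 1.94-fold higher on o-anisidine 3 than the VC mean. On o-anisidine 2 it was not well above background either, so no fold is given there or for the group. This probe was not tested.

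**Figure D1:**
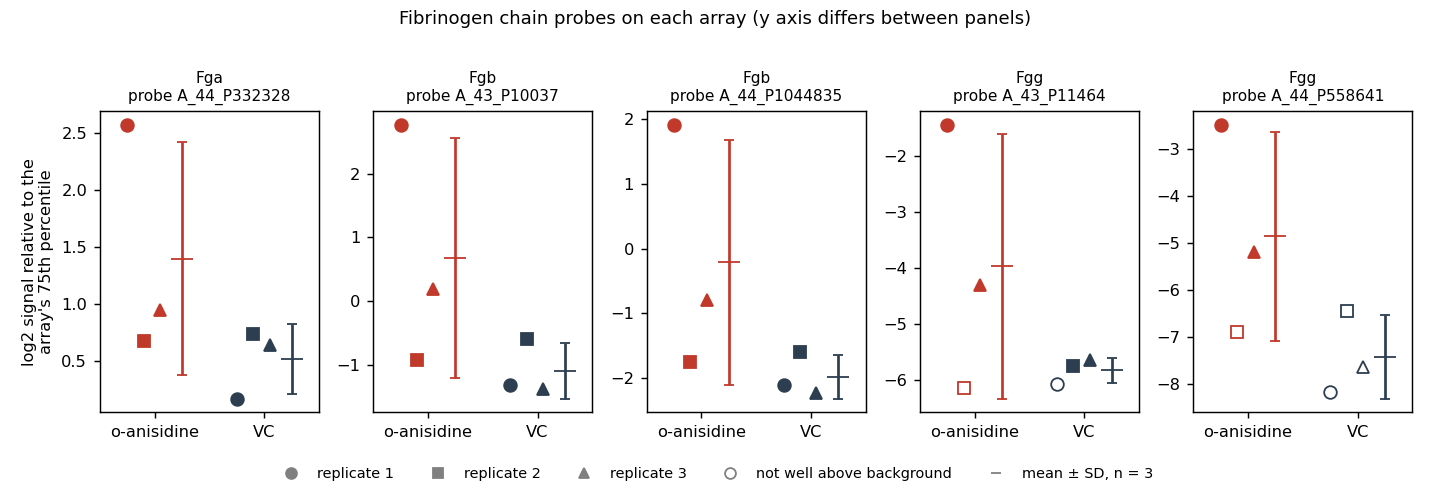
Log2 signal relative to the array's 75th percentile (y axis, a scale of its own in each panel) of the 5 fibrinogen probes for o-anisidine (red) and VC (dark) arrays, with the marker shape giving the replicate, open markers spots not well above background, and bars the mean ± SD (n = 3). In every panel o-anisidine 1 is the highest array, o-anisidine 3 is second, and o-anisidine 2 lies at the level of VC; for Fgg A_43_P11464 it reads -6.14, against -6.08 for the lowest VC array.

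Of the 3 chains, 2 were tested and 0 passed the adjusted threshold of 0.05, set beside 0.0611% of all genes tested (11 higher and 8 lower). None of the 3 chains had groups that did not overlap, which 18.4% of tested genes had. The log2 difference was above 0 for both tested chains, as for 50.9% of all genes. The o-anisidine arrays differed more among themselves than the VC arrays did. The range over the 3 o-anisidine arrays was 1.89 for Fga, 3.68 for Fgb and 4.70 for Fgg, and the range over the VC arrays was 0.57, 0.79 and 0.44 in the same order. Over all genes tested the median range was 0.26 for o-anisidine and 0.23 for VC. A wider o-anisidine range than that of the chain was found for 247 tested genes (0.795%) beside Fga, 34 (0.109%) beside Fgb and 11 (0.0354%) beside Fgg.

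The difference between groups rested on o-anisidine 1 more than on any other array. Without it the log2 difference was 0.29 for Fga, 0.73 for Fgb and 0.60 for Fgg, and without o-anisidine 2 it was 1.24, 2.57 and 2.95. On the slide shared by o-anisidine 3 and VC the difference was 0.43 for Fga (adjusted p = 0.686, limma), 1.29 for Fgb (adjusted p = 0.395, limma) and 1.52 for Fgg, which was not tested. With normexp background correction the value of Fgg was 0.89 in place of 1.86. Since o-anisidine 1 and 2, the highest and the lowest treated arrays for each chain, shared the other slide, the spread among treated animals was as wide within that slide as over both.

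**Figure D2:**
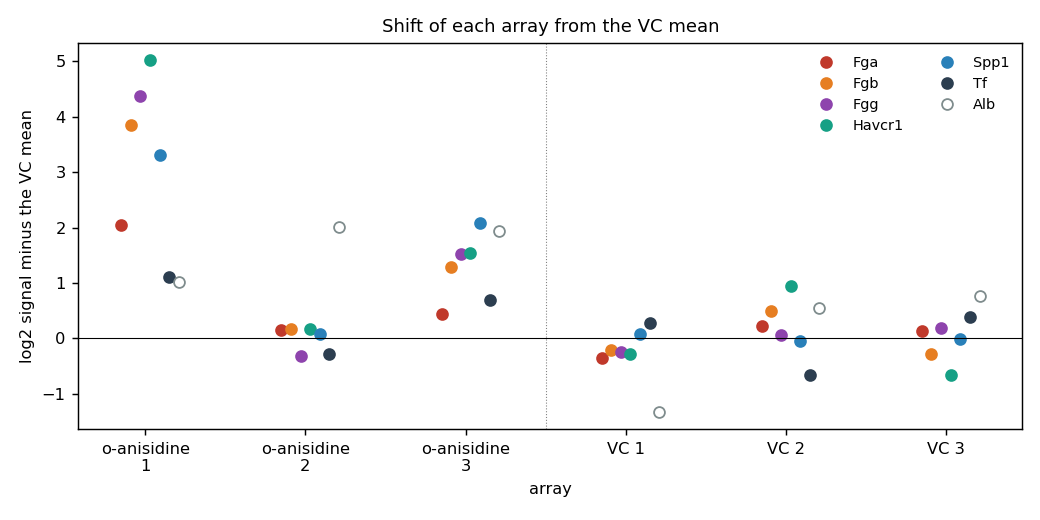
Log2 signal minus the mean of the 3 VC arrays (y axis) on each array (x axis) for Fga, Fgb and Fgg, the injury genes Havcr1 and Spp1, and the hepatocyte genes Tf and Alb (Alb open, well above background on o-anisidine 2 and 3 alone). Fga, Fgb and Fgg stand at 2.05, 3.86 and 4.38 on o-anisidine 1 and between -0.32 and 0.17 on o-anisidine 2, while Tf is highest on o-anisidine 1 and Alb is higher on o-anisidine 2 and 3 than on o-anisidine 1.

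The question of whether the chains were coordinated was asked over the 6 arrays with the brighter probe of each gene. Pearson's r was 0.971 for Fga and Fgb (two-sided exact permutation p = 0.0056), 0.963 for Fga and Fgg (exact permutation p = 0.0139) and 0.977 for Fgb and Fgg (exact permutation p = 0.0181). Adjusted over the 3 pairs (Benjamini-Hochberg), these exact permutation p-values were 0.0167, 0.0181 and 0.0181. Spearman's rho was lower, at 0.943 for Fga and Fgb (adjusted exact permutation p = 0.05), 0.714 for Fga and Fgg (0.204) and 0.60 for Fgb and Fgg (0.242), the raw exact permutation p-values being 0.0167, 0.136 and 0.242.

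The correlations depended on o-anisidine 1 and o-anisidine 3. Without the 2 arrays farthest from the median of Fga, which were o-anisidine 1 and VC 1, r over the other 4 arrays was 0.971 for Fga and Fgb and 0.919 for Fga and Fgg. Without the 2 farthest from the median of Fgb, which were o-anisidine 1 and 3, r for Fgb and Fgg was -0.024, so that relation rested on those arrays. Leaving out o-anisidine 1 alone gave 0.763 for Fga and Fgb, 0.690 for Fga and Fgg and 0.830 for Fgb and Fgg, the smallest adjusted exact permutation p being 0.225. Leaving out o-anisidine 3 left r at 0.976 or above with adjusted exact permutation p-values of 0.10 for Fga and Fgb and 0.108 for the other pairs, and leaving out VC 2 gave r from 0.968 to 0.983 with an adjusted exact permutation p = 0.05 for each pair.

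With the mean of each group taken out, r was 0.957, 0.946 and 0.969 in the same order of pairs. Permuting within groups, the exact p cannot go below 0.0278, and the adjusted exact permutation p-values were 0.0833, 0.0833 and 0.111. On the slide with 4 arrays r was 0.778, 0.799 and 0.870. The other slide held 2 arrays, too few for a value.

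**Figure D3:**
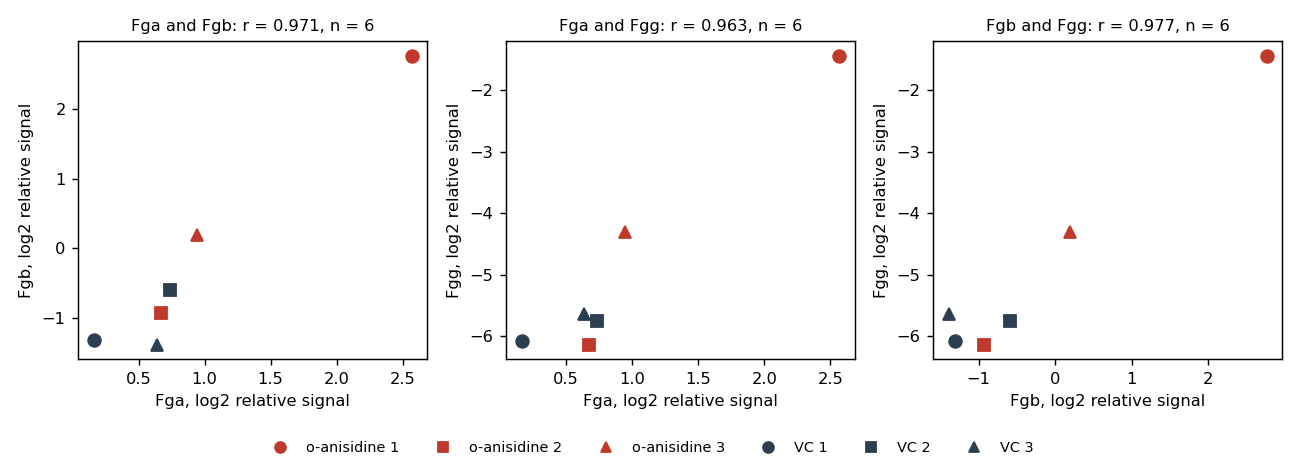
Each pair of chains over the 6 arrays, both axes as log2 signal relative to the array's 75th percentile, o-anisidine in red and VC dark. o-Anisidine 1 stands alone at the top right and o-anisidine 3 next, while o-anisidine 2 and the VC arrays form a group at the lower left with no order shared by Fgb and Fgg (r = -0.024 over those 4 arrays).

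Set beside all genes tested, the chains were among the closest to one another. Of 31085 other tested genes, 12 (0.0386%) followed Fgb with a higher r than Fga did, and 9 (0.029%) with a higher r than Fgg did. For Fga as the starting point, 17 genes (0.0547%) exceeded Fgb and 26 (0.0836%) exceeded Fgg. These are descriptions over 6 arrays, of which 1 stands far from the rest.

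Likeness to the mean of the 3 chains was ranked by Pearson's r over the 6 arrays among the other tested genes with a symbol. The 8 highest were Ctnnb1 (0.984), Havcr1 (0.981), Cilk1 (0.979), Stat4 (0.973), Kcna6 (0.971), Sfnl1 (0.969), Timp1 (0.967) and Abcb1b (0.967). Most of them had far smaller shifts than the chains: on o-anisidine 1 the shift from the VC mean was 0.18 for Ctnnb1, which encodes beta-catenin, and 0.25 for the kinase gene Cilk1. Timp1, an inhibitor of matrix metalloproteinases, was shifted by 1.00 there and Abcb1b, a drug efflux pump, by 1.22. Havcr1, which encodes the tubular injury molecule KIM-1, was the one of the 8 with a shift as large as that of the chains. It stood 5.02, 0.17 and 1.54 above the VC mean on o-anisidine 1, 2 and 3, where Fgg was at 4.38, -0.32 and 1.52.

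Spp1, or osteopontin, another gene of injured tubules, was at 6.39, 3.16 and 5.16 across o-anisidine 1 to 3, against 3.15, 3.03 and 3.07 across VC 1 to 3. Its adjusted p was 0.440 and that of Havcr1 0.539 (limma, Benjamini-Hochberg). Over the whole kidney injury list 0 of 22 tested genes passed in either direction, set beside 0.0354% of all genes higher and 0.0257% lower, and the median log2 difference was 0.18, against 0.0037 over all genes. In that list 7 genes were higher with no overlap between groups, set beside 9.55% of all genes, and 3 lower, set beside 8.88%. The smallest p-values belonged to Krt19, a keratin, with a log2 difference of 2.88 (SE 0.34, adjusted p = 0.0894), and to the chemokine gene Cxcl1 with -0.92 (SE 0.12, adjusted p = 0.0993). The order of arrays seen in the chains was found for 4 of the 22 (Havcr1, Timp1, Gpnmb and Cp), set beside 1.94% of all genes. It was not found for Krt19, which read 0.52, -0.22 and -0.75 on o-anisidine 1, 2 and 3.

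Of 26 listed clotting factors and inhibitors 15 were tested and 0 passed in either direction, with a median log2 difference of 0.058. The order of the chains was found for 0 of the 15, set beside 1.94% of all genes, too small a share to read anything from. With no overlap 2 were higher and 3 lower, set beside 9.55% and 8.88% of all genes. F2, which encodes prothrombin, read 2.43, 2.34 and 2.51 across o-anisidine 1 to 3, against 2.54, 1.99 and 2.19 across VC 1 to 3, and F3, or tissue factor, had a log2 difference of 0.44 (SE 0.12, adjusted p = 0.279). The smallest p-values of the list were those of Tgm2, a tissue transglutaminase (log2 difference -0.44, SE 0.10, adjusted p = 0.192), and Klkb1, or plasma prekallikrein (-1.45, SE 0.37, adjusted p = 0.254). F7, F9 and Serpind1 were well above background on no array. F2 and F3 were picked from the list after their values were seen.

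Among genes that dissolve fibrin 0 of 12 tested passed, with a median log2 difference of 0.13 and 2 higher and 1 lower with no overlap (9.55% and 8.88% of all genes). S100a10 and Anxa2, which together form a surface receptor for plasminogen and its activator, had the smallest p-values, with log2 differences of 0.23 (SE 0.07, adjusted p = 0.329) and 0.27 (SE 0.11, adjusted p = 0.420). Of 6 tested receptors for fibrinogen and fibrin 0 passed (median -0.015), Tlr4 being at -0.25 (adjusted p = 0.519) and Icam1 at -0.098 (adjusted p = 0.742). Of 11 tested genes with a fibrinogen-like domain 0 passed (median -0.14), Fcnb, a ficolin, being at -0.31 (adjusted p = 0.264) and Angpt1, an angiopoietin, at -0.32 (adjusted p = 0.620). Their median shift on o-anisidine 1 was -0.43.

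The acute phase proteins, of which the fibrinogen chains are members in the liver, had a median log2 difference of 0.16 over 15 tested genes, with 0 past the threshold and 1 higher with no overlap (9.55% of all genes). Relative to the VC mean, their median shift was 0.31, 0.12 and 0.22 for o-anisidine 1 to 3. The order of arrays seen in the chains was found for 3 of them, Saa4, Cp and Timp1, set beside 1.94% of all genes. Their log2 differences were 0.35, 0.46 and 0.45, and Cp and Timp1 are the same genes as in the kidney injury list. Lcn2, a siderophore-binding lipocalin, was at 1.06 (SE 0.32, adjusted p = 0.328) and Cfb, complement factor B, at -0.54 (SE 0.27, adjusted p = 0.494). Crp and Orm1, which hepatocytes secrete in the acute phase, were well above background on no array, and neither were Itih3 and C4bpa. Of genes on the interleukin 6 route and of regulators of the chains 0 of 21 tested passed (median -0.0067). Il6 itself was well above background on no array. Stat3, the transcription factor at the end of that route, was at 0.36 (SE 0.08, adjusted p = 0.207) and read 2.85, 2.82 and 2.86 across o-anisidine 1 to 3, against 2.47, 2.60 and 2.39 across VC 1 to 3, which is nearly the same value in each treated animal.

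Socs3, the feedback inhibitor that STAT3 induces, read -1.30, -1.37 and -1.85 across o-anisidine 1 to 3, against -2.30, -2.01 and -1.64 across VC 1 to 3 (log2 difference 0.47, SE 0.22, adjusted p = 0.469). Hnf4a, a nuclear receptor of hepatocytes and proximal tubule, had the smallest p of the list (log2 difference -0.71, SE 0.11, adjusted p = 0.115). The order of arrays seen in the chains was found in this list for Il6r alone, set beside 1.94% of all genes. Il6r encodes a subunit of the interleukin 6 receptor, and its log2 difference was 0.11 (limma adjusted p = 0.790). Cebpb, a C/EBP factor, was picked after its values were seen. It read 3.40, 2.60 and 3.82 across o-anisidine 1 to 3, against 2.47, 2.13 and 2.85 across VC 1 to 3. Unlike in the chains, o-anisidine 3 was above o-anisidine 1. Its log2 difference was 0.79 (limma adjusted p = 0.448), beside -0.25 for Cebpa and 0.029 for Cebpd.

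**Figure D4:**
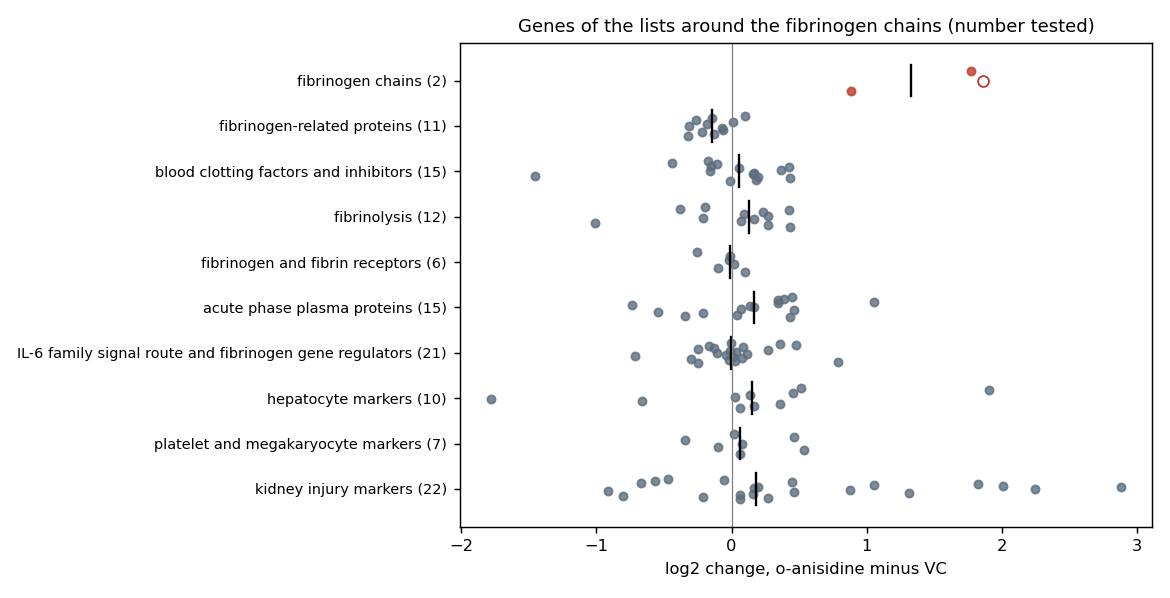
Log2 difference, o-anisidine minus VC (x axis), of every tested gene in each list (rows, with the number tested), the vertical bar marking the list's median and the open red circle Fgg, which was not tested. The chains lie at 0.88, 1.77 and 1.86. All tested clotting, fibrinolysis and acute phase genes lie to their left except Lcn2 at 1.06, which exceeds Fga. In other rows some genes lie to the right of all 3 chains, among them Rbp4 at 1.91, Havcr1 at 2.25 and Krt19 at 2.88. The acute phase gene Serpina3n, which was not tested and is not drawn, was at 2.82.

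Several defining markers of hepatocytes, the usual source of the chains, were not measurable, while others were. Of 18 listed, 10 were tested, among them Ahsg, Apob, Apoh and Ambp, each well above background on all 6 arrays. The VC means of these were -1.10, -1.70, -0.72 and 0.39. Ttr, Apoa2, Cps1, Tat and Fgl1 were well above background on no array. Alb read -5.81, -4.82 and -4.89 across o-anisidine 1 to 3, against -8.15, -6.27 and -6.06 across VC 1 to 3, and was well above background on o-anisidine 2 and 3 only. Tf, which encodes transferrin, was the one tested gene of this list with the order of arrays of the chains, set beside 1.94% of all genes. It read 3.95, 2.57 and 3.54 across o-anisidine 1 to 3, against 3.12, 2.18 and 3.23 across VC 1 to 3 (log2 difference 0.51, SE 0.43, limma adjusted p = 0.685). Apoa1 read -5.56, -5.58 and -5.62 across o-anisidine 1 to 3, against -5.71, -6.27 and -5.04 across VC 1 to 3, and was well above background on 1 of 3 o-anisidine and 2 of 3 VC arrays. The summed scaled signal of the list was 61.6, 85.6 and 87.7 for o-anisidine 1 to 3, against 68.8, 65.5 and 72.5 for VC 1 to 3, and most of it came from Cyp2e1, a cytochrome P450. Without Cyp2e1 the other 17 summed to 25.1, 11.7 and 22.7 for o-anisidine 1 to 3, against 17.9, 8.22 and 15.9 for VC 1 to 3. This sum was highest on o-anisidine 1 and lowest on VC 2. Most of it came in turn from Tf and Rbp4, so it says little of the other markers. The part of the hepatocyte list in the values of the chains was not tested. Of its 10 tested genes 0 passed (median 0.15), the smallest p-values being those of Rbp4, a retinol carrier also made in kidney (1.91, SE 0.34, adjusted p = 0.136), and Itih1 (0.45, SE 0.29, adjusted p = 0.597).

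Platelets also carry fibrinogen. Pf4, a platelet chemokine, read 0.07, -0.37 and -0.80 across o-anisidine 1 to 3, against 0.60, -0.31 and -0.35 across VC 1 to 3 (adjusted p = 0.721). Of the 7 tested platelet markers 0 passed (median 0.063), with Gp1bb at 0.54 (adjusted p = 0.448) and Ppbp at 0.46 (adjusted p = 0.501), and their summed scaled signal was 2.04 to 2.69 for o-anisidine and 1.83 to 3.20 for VC. Of red blood cell markers 4 of 11 passed as higher after o-anisidine, set beside 0.0354% of all genes, those with the smallest p-values being Kel at 2.17 (limma adjusted p = 0.0020), Rhd at 2.61 (0.0048) and Hemgn at 1.97 (0.0101), and the list had a median shift of 1.83, 1.59 and 1.49 on o-anisidine 1, 2 and 3. With slide as a block 1 of these 4 calls was left (Kel), within the shared slide 0, and with the replicate number as a block 0 (adjusted p from 0.0846 to 0.129, limma), with all 4 still higher. The part of these markers in the values of the chains was not tested.

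Markers of other kidney cells were also set beside the chains. The median shift of the loop, distal tubule and collecting duct markers was -0.36, -0.023 and -0.021 on o-anisidine 1, 2 and 3. That of the podocyte markers was -0.32, -0.056 and -0.11, so both medians were lowest where the chains were highest. Of 12 and 8 tested genes 0 passed in either list (medians -0.10 and -0.13), Scnn1b at -0.55 (adjusted p = 0.101), Scnn1g at -0.34 (adjusted p = 0.412), Plce1 at -0.40 (adjusted p = 0.368) and Podxl at -0.31 (adjusted p = 0.440) having the smallest p-values. With no overlap 2 and 3 were lower, set beside 8.88% of all genes, and 0 were higher in either list, set beside 9.55%. The summed scaled signal of the first list was 631.6, 622.5 and 715 for o-anisidine 1 to 3, against 633 to 711 for VC, and so was lowest on o-anisidine 2. That of the second list was 31.3, 37.0 and 40.8 for o-anisidine 1 to 3, against 39.9 to 43.6 for VC. Without Umod, the brightest of the first list, its sum was 169, 229 and 235 for o-anisidine 1 to 3, against 253 to 261 for VC. Proximal tubule markers had a median of 0.024 with 0 of 15 past the threshold (Lrp2 at -0.20, Pck1 at 0.16). Macrophage and neutrophil markers had a median of -0.022 with 0 of 9 past the threshold (S100a9 at 1.37, S100a8 at 1.36), and 3 were higher and 1 lower with no overlap (9.55% and 8.88% of all genes). Their median shift was 0.20, -0.32 and 0.18 for o-anisidine 1 to 3, against 0.14, -0.078 and -0.064 for VC 1 to 3. The order of the chains was found for 0 of the 9, set beside 1.94% of all genes. That share is too small to read anything from. The summed scaled signal of these markers was 113, 83.1 and 106 for o-anisidine 1 to 3, against 102 to 114 for VC, and most of it came from Lyz2. Without Lyz2 the other 10 summed to 14.9, 12.2 and 14.0 for o-anisidine 1 to 3, against 13.5 to 15.3 for VC. The part of these markers in the values of the chains was not tested.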

How the data were processed

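Per the labels' protocols, total RNA of renal cortex was amplified and labelled with Cy3. The deposited scanner files, written by Feature Extraction 10.7.1.1 per the file headers (10.7 in the submitters' processing notes), hold a processed intensity for each spot, background-subtracted and detrended, with no scaling between arrays, per the file headers. Other columns used, per the file headers, were median intensity values and spot flags. The authors' value table holds an intensity close to the processed signal over the array's 75th percentile, and its columns match other replicates of the same group (r = 1.00, largest log2 difference 0.028), so replicate numbers follow the scanner files.

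Accessions were matched without version to RefSeq (GRCr8, names only), which named 27460 of 61657 probes. A probe was kept when every array of either group had it well above background and no array had an outlier flag (16 probes had one), which left 42036, and a gene was its brightest kept probe (31087 genes). Fgg had no kept probe. Groups were fitted with limma 3.58.1 in R 4.3.3 (two-sided, no covariates, 4 residual and 2.11 prior degrees of freedom, Benjamini-Hochberg, threshold 0.05). The fit was tested on simulated data. Correlations used exact permutation of 720 pairings. The lists (15, naming 221 genes, 202 on the array and 168 tested) are described by counts and medians. In each list the genes past the threshold (at most 3 by p) or the 2 with the smallest p are named. Some genes fixed by name and the 8 genes with a symbol most like the chains are named as well. The members and lists were chosen with earlier results of these data known. Alternatives covered background, scaling, filter, probe choice, variance model, slide, replicate number and each array left out. Some genes of the lists are not reported here.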

Additional observations from a re-analysis of the deposited data

How the results depend on the processing

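The log2 differences of Fga and Fgb kept their direction and did not pass the threshold in any of the 17 alternatives with a limma fit, with adjusted p from 0.436 to 0.895 for Fga and from 0.349 to 0.827 for Fgb, and that of Fgg kept its direction in all 15 alternatives, although with its dimmer probe no VC array was well above background, so that its size there is not measured. Leaving out each array in turn gave 0.29 to 1.24 for Fga, 0.73 to 2.57 for Fgb and 0.60 to 2.95 for Fgg. Normexp background correction, run on the median signal because the files hold no mean signal and so chosen after seeing the data, gave 0.94, 1.63 and 0.89. The dimmer probe, also chosen after seeing the data, gave 1.76 for Fgb. With slide as a block the differences were 0.43, 1.29 and 1.52.

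The correlations stayed past the threshold under every scaling, background and probe choice run, the dimmer Fgg probe being below detection on 4 arrays. They lost it with group means removed (0.957, 0.946 and 0.969) and slide means removed (0.960, 0.970 and 0.976, adjusted exact permutation p = 0.167 for each), and were 0.778, 0.799 and 0.870 within the shared slide. They also lost it without o-anisidine 1, o-anisidine 3 or VC 2. Over the arrays left without o-anisidine 1 and 3, chosen after seeing the data, they were 0.591, 0.461 and -0.024. Leaving out each array gave 0.763 to 0.988, 0.690 to 0.977 and 0.830 to 0.992. Fewer arrays or fewer permutations raise the smallest p these settings allow.

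The counts of genes past the threshold, 11 higher and 8 lower, were 65 and 17 with normexp, 91 and 29 with a trended and robust variance, 5 and 6 with no filter, 9 and 5 with all 6 arrays well above background, 2 and 1 with slide as a block, 1 and 1 within the shared slide, and 2 to 16 and 1 to 5 with each array left out. The replicate number as a block gave 1 and 0 (1839 and 1445 at an unadjusted p under 0.05), and adjusted p of 0.610 for Fga and 0.549 for Fgb. Deviations from the group mean had r over genes of 0.020, 0.077 and 0.012 for arrays with the same number. For arrays with different numbers r was -0.049 to 0.029. Whether a shared number marks anything else in common cannot be told from these values. The cause of the changes between settings was not tested. Fgg was near background on most arrays.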

Other observations

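The order of arrays in the chains, o-anisidine 1 above o-anisidine 3 above all of VC with o-anisidine 2 no higher than the highest VC array, was combined with an o-anisidine range wider than that of Fga, a rule chosen after the values were seen. Of 31087 tested genes 12 met it, and 9 of those had a symbol: Fgb, Havcr1, Ccl20, Ccl11, Slc34a2, Cdca7, Mycs, Oit3 and Sectm1b. Ccl20, a chemokine, stood 1.94, -0.097 and 1.23 from the VC mean on o-anisidine 1, 2 and 3, and Slc34a2, a phosphate transporter, stood at 1.59, -0.54 and 1.12. Havcr1 and Fgb had shifts on o-anisidine 1 (5.02 and 3.86) well beyond those of the other 7, which were 0.64 to 1.94.

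Serpina3n, an acute phase protease inhibitor in the list above, was not tested because its spot was flagged as an outlier on 1 array. It read -1.38, -2.08 and -1.23 across o-anisidine 1 to 3, against -2.79, -5.12 and -5.26 across VC 1 to 3, so the groups did not overlap, and o-anisidine 2 was above every VC array, unlike in the chains. A2m, another acute phase gene and a protease inhibitor, read -2.55 on o-anisidine 1, against -3.26 and -3.54 on o-anisidine 2 and 3 and -3.55, -3.45 and -3.65 on VC 1, 2 and 3. Both were picked with their values known.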
